A study of Mus musculus with 6 samples.

Results

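The genes described here are 32 genes of protein folding in the endoplasmic reticulum (ER) and of the unfolded protein response (UPR), taken by symbol from a list that covers sensors, chaperones, disulfide enzymes, degradation factors, translocon subunits and phosphatase subunits. Each was represented by its brightest probe set among those annotated with that symbol alone, and 31 of the 32 had one. The probe set of Pdia4 also carried a microRNA symbol and was left out. Derl3 averaged 5.24 ± 0.16 with GW9662 and 5.32 ± 0.07 without (log2 scale, SD, n = 3 in each group). That is under the level filter of 6.15, the median over all probe sets, so Derl3 was not tested. The remaining 30 were tested among 12212 genes, on a table of 41345 probe sets. Ero1l and Ero1lb of the list are named Ero1a and Ero1b in the annotation.

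The samples were cultures of wild-type BV2 cells, an immortalised line of mouse microglia, and each was measured on 1 of 6 Affymetrix whole-transcript arrays. The 3 arrays of one group came from cells given telmisartan, GW9662 and lipopolysaccharide (LPS), and the 3 of the other from cells given telmisartan and LPS. All 6 samples therefore carried telmisartan and LPS. The drugs were on the cells for 2 h before LPS was added for 1 h, 3 h in all, and the sources used here give no doses. Telmisartan blocks the angiotensin II type 1 receptor and partly activates the nuclear receptor PPARG, GW9662 binds PPARG irreversibly and antagonises it, and LPS activates TLR4. The comparison asks how the ER folding and UPR transcripts of cells under telmisartan and LPS differ when GW9662 is present. All samples come from 1 cell line, and the labels do not say whether the samples of a group are separate cultures. P-values therefore rest on the spread among these 6 samples, part of which may be technical.

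The ER folds secreted and membrane proteins with the help of chaperones and enzymes that form disulfide bonds. When unfolded protein builds up, the sensors IRE1 (gene Ern1), PERK (gene Eif2ak3) and ATF6 (gene Atf6) start the UPR. IRE1 splices the mRNA of the transcription factor XBP1, PERK phosphorylates the translation factor eIF2 and so slows protein synthesis, and ATF6 is cut in the Golgi to free a transcription factor. These branches raise chaperones and the ER-associated degradation (ERAD) machinery, which moves misfolded proteins to the proteasome. In macrophages and microglia the load on the ER grows when cytokine secretion starts, and TLR4 is known to act on the IRE1 branch.

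The 6 arrays correlated at 0.990 to 0.996 over the genes tested. Replicate 2 with GW9662 and replicate 3 without it stood apart. On the first principal component (42.8% of the variance) they scored 7.55 and 14.6, and the other arrays -8.15 to -0.98. All 10 microglia markers examined lay above the level filter, among them Itgam at 10.7 to 10.8 with GW9662 and 10.8 to 10.9 without, and Csf1r at 11.1 on all 3 arrays with GW9662 and 11.1 to 11.2 without. Aif1, C1qa and Cx3cr1 were the dimmest of the 10, at means of 6.76, 6.93 and 7.07 with GW9662 and 6.96, 6.88 and 6.97 without. Of 23 markers of other cell types of the brain and of fibroblasts and lymphocytes that had a probe set, 11 lay above the filter. The brightest of them was Syn1 at a mean level of 8.52, above Aif1, C1qa and Cx3cr1. None of the 10 microglia markers and 0 of these 11 passed the threshold in limma, and at an unadjusted p under 0.05 there was 1, Aif1, with a log2 difference of -0.20. In bulk RNA such as this, a change in the share of responding cells and a change in RNA per cell cannot be told apart.

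No ER folding or UPR gene changed with GW9662 at an adjusted p under 0.05. In limma, with p-values adjusted by the Benjamini-Hochberg method over all 12212 genes, 0 of 30 genes passed, where 0.0409% of all genes tested passed (5 genes, 3 higher and 2 lower). At an unadjusted p under 0.05 the count was 2 of 30 (6.67%), Ern1 and Herpud1, beside 4.45% of all genes tested. The groups did not overlap, array for array, in 4 of 30 genes (13.3%), beside 9.37% of all genes tested. Of these 4, Ern1, Herpud1 and Syvn1 were higher with GW9662 (10%, beside 4.01% of all genes) and Calr was lower (3.33%, beside 5.36%).

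Across the 30 genes the log2 difference, with GW9662 minus without, ran from -0.21 for Dnajc3 to 0.20 for Ern1, with a median of -0.0055 beside -0.02 over all genes tested. Of the 30, 14 differences were positive and 16 negative (46.7% positive, beside 41.2% of all genes). The difference was under 0.1 in size in 24 of 30 genes (80%, beside 73.1% of all genes). Each 95% interval is for 1 gene and is not adjusted for the number of genes. All 30 intervals lay within 0.5 of zero on the log2 scale, and 21 of 30 (70%) lay within 0.25, beside 47.2% of all genes. The widest reaches were -0.46 for Dnajc3 and 0.42 for Sec61b. Within groups these genes were also tight, with a median pooled SD of 0.07 beside 0.10 over all genes tested. These comparisons were not matched for level, and dim genes were fewer on the list. With a level filter at 7, 29 of the 30 remained, beside 9414 of the 12212 genes.

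**Figure D1:**
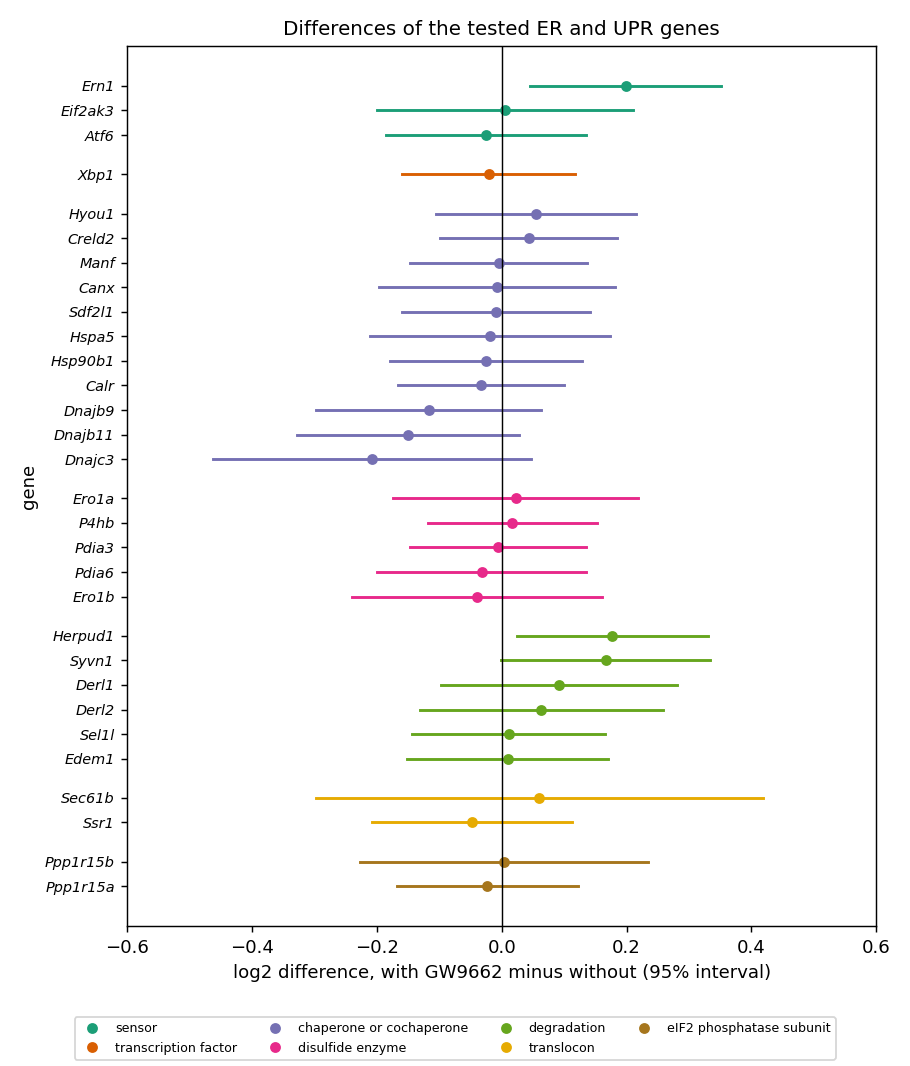
Log2 difference of each of the 30 tested genes (horizontal axis, with GW9662 minus without) with its 95% interval from limma, grouped by role, 1 gene per line. The intervals of Ern1 and Herpud1 exclude zero before adjustment, that of Syvn1 just crosses it, and most other points lie within 0.1 of zero.

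Many of these genes share a promoter element that the list of symbols did not use. The ER stress element is read by NF-Y at CCAAT and by ATF6 or XBP1 at CCACG, 9 bases further on. In the RefSeq windows of GRCm38.p6 that span 250 bases before and 50 bases from the annotated start, and with both strands searched, 10 of the 27 genes with a window held it (37%), against 37 of 27025 genes of the whole table (0.137%), so that 10 of these 37 genes are on the list. A second form, in which ATTGG and CCACG are 1 base apart, was found in 2 of the 27 (7.41%), Herpud1 and Dnajb11, against 12 of 27025 genes (0.0444%). The forms did not overlap in any of these windows. Atf6, Derl1, Hyou1, Manf and Ppp1r15b had no window in the table. The list was drawn up from known UPR genes, many of them known through this element, so the share is a description of the list. The matches below, from the 12 genes with either form, are written on the strand of the element, with the fixed letters in capitals. The other genes with a window held neither form.
Hspa5: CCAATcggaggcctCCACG
Hsp90b1, distal: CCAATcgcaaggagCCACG
Hsp90b1, proximal: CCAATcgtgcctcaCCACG
Calr: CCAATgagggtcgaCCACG
Canx: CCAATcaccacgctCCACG
Creld2: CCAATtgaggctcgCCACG
Dnajc3: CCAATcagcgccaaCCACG
Pdia6: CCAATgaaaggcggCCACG
Ero1b: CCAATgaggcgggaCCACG
Syvn1: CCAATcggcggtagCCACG
Derl3: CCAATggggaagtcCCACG
Herpud1, second form: ATTGGgCCACG
Dnajb11, second form: ATTGGcCCACG

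The match began 65 bases before the start in Hspa5, 44 in Syvn1 and 52 in Herpud1, and it lay just after the start in Dnajb11. On the strand of the gene, the first form was in the direct orientation in 6 of the 10 genes and only in the reverse one in 4. The 250 bases before the start are given for Hspa5, whose transcript differed by -0.02 between groups, and for Herpud1 and Syvn1, whose groups did not overlap. Each is on the strand of the gene, with the fixed letters of its match in capitals, and all 3 lie on the plus strand, at chr2:34771840-34772089, chr8:94386179-94386428 and chr19:6046326-6046575 of GRCm38.p6.
Hspa5: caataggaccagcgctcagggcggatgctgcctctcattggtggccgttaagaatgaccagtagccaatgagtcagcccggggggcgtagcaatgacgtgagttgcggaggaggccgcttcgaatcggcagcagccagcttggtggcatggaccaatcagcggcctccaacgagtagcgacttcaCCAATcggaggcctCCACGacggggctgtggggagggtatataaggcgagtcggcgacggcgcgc
Herpud1: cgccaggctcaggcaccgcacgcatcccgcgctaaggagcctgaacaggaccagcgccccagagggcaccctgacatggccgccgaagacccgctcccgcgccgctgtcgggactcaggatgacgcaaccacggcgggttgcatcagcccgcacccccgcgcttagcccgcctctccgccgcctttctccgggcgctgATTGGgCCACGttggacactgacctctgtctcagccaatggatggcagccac
Syvn1: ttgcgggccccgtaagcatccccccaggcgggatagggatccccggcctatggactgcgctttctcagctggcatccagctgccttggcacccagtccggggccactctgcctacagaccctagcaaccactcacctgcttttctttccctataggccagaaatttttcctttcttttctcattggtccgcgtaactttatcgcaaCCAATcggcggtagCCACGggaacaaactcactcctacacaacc

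The 3 sensors differed by -0.02 to 0.20. Ern1 (probe set 17270888), which encodes the kinase and RNase IRE1, had log2 levels of 9.44, 9.34 and 9.43 with GW9662, against 9.25, 9.13 and 9.24 without. Every array with GW9662 was above every array without it, and replicate 2 was the lowest of its group in both. The difference was 0.20 ± 0.07 (SE), or 1.15-fold with a 95% interval of 1.03 to 1.28, and it did not pass in limma (adjusted p = 0.979, unadjusted p = 0.0171). Without the 2 arrays that stood apart it was 0.25 (adjusted p = 0.594 in limma).

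Eif2ak3 (probe set 17459425), which encodes PERK, lay at 8.22, 8.45 and 8.27 with GW9662, against 8.27, 8.22 and 8.44 without. The groups overlapped fully, and the high arrays were the 2 that stood apart. The difference was 0.0046 ± 0.09 (SE), with an interval of -0.20 to 0.21. Atf6 (probe set 17229556) lay at 11.52, 11.34 and 11.44 with GW9662, against 11.49, 11.47 and 11.41 without, and here the same 2 arrays were the lowest of their groups. Its difference was -0.02 (interval -0.18 to 0.14) and turned to 0.0024 when quantile normalization was repeated over the genes tested. Xbp1 (probe set 17246967), the target of IRE1 splicing, lay at 10.72, 10.63 and 10.70 with GW9662, against 10.69, 10.71 and 10.72 without. The groups overlapped, and the difference of -0.02 (interval -0.16 to 0.12) also turned positive on repeated normalization (0.0092). A probe set value sums spliced and unspliced Xbp1 mRNA, so these values do not measure splicing.

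**Figure D2:**
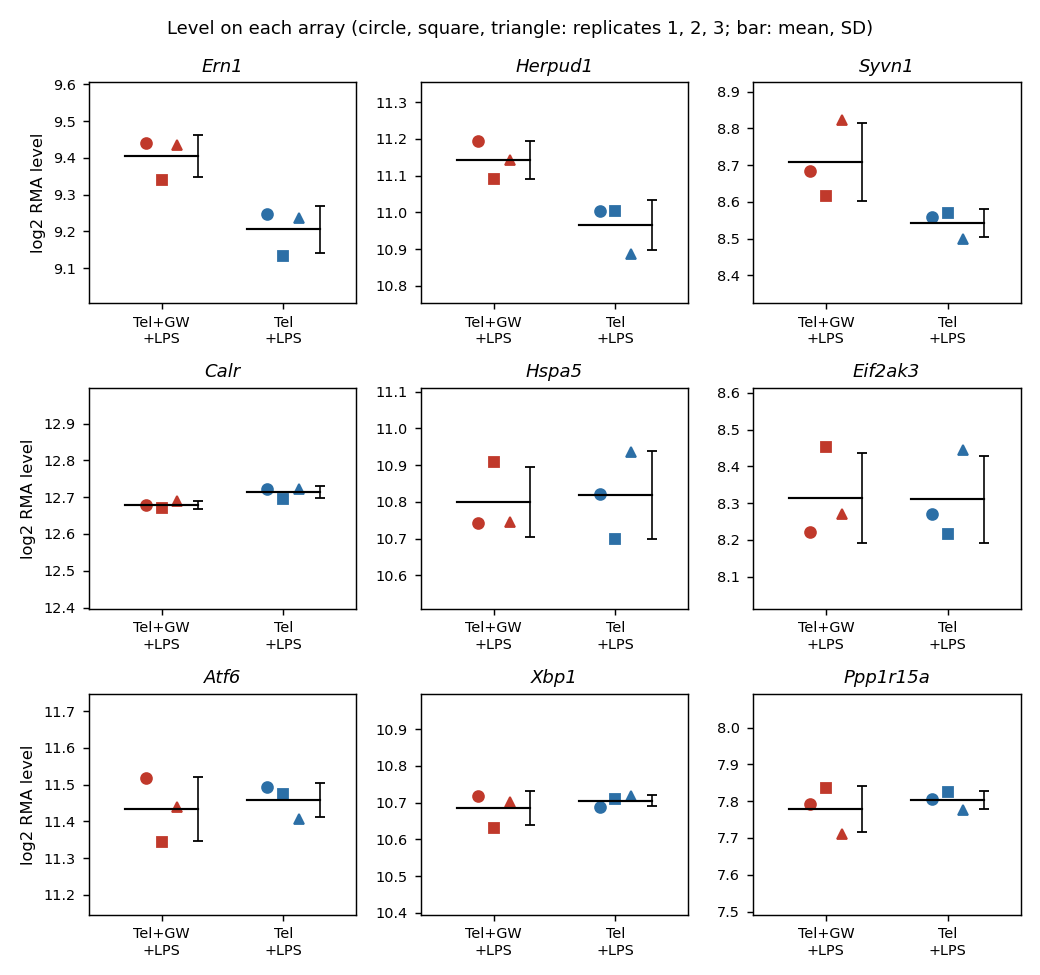
Log2 RMA level (vertical axis, a span of 0.6 in every panel) of 9 genes on each array, with telmisartan, GW9662 and LPS on the left of each panel and telmisartan and LPS on the right. Circles, squares and triangles are replicates 1, 2 and 3, and bars give the mean and SD of 3 arrays. The groups separate in Ern1, Herpud1, Syvn1 and, by a very small distance, Calr, and overlap in the other 5.

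The major chaperones differed by little. The central ER chaperone BiP is encoded by Hspa5 (probe set 17370103), whose promoter holds the stress element and which lay at 10.74, 10.91 and 10.75 with GW9662, against 10.82, 10.70 and 10.94 without. The groups overlapped throughout, and the highest arrays were again the 2 that stood apart. The difference was -0.02 ± 0.08 (SE), with a fold interval of 0.863 to 1.13 (adjusted p = 0.999 in limma), and it became 0.0096 on repeated quantile normalization. Calr (probe set 17511183), the lectin chaperone calreticulin, had 12.679, 12.670 and 12.690 with GW9662, against 12.722, 12.694 and 12.724 without. Its groups did not overlap, but the gap between the nearest arrays was smaller than 0.005, they met in the deposited table with 2 decimals, and the difference was -0.03 (interval -0.17 to 0.10).

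The other large chaperones also overlapped between groups. Hsp90b1, the ER member of the HSP90 family, differed by -0.03 (interval -0.18 to 0.13). Canx, the membrane-bound partner of calreticulin, differed by -0.0078 (-0.20 to 0.18), and Hyou1, an exchange factor for BiP, by 0.06 (-0.10 to 0.22). The small UPR-induced chaperone genes Sdf2l1, Manf and Creld2 differed by -0.009, -0.0051 and 0.04, and their widest interval was that of Creld2 on the upper side (0.19) and Sdf2l1 on the lower side (-0.16). Canx, Sdf2l1 and Manf took a positive sign with median centring or repeated quantile normalization.

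The J-domain cochaperones, which deliver clients to BiP and start its ATPase, had the lowest differences of the whole list, and none passed. Dnajc3 lay at 8.96, 9.11 and 8.69 with GW9662, against 9.12, 9.03 and 9.23 without. Replicate 3 with GW9662 was the lowest array, and the groups overlapped through replicate 2 with GW9662. The difference was -0.21 ± 0.11 (SE), or 0.866-fold with an interval of 0.726 to 1.03 (adjusted p = 0.994 in limma), and with 1 array left out it ran from -0.30 (without replicate 2 with GW9662) to -0.09 (without replicate 3 with GW9662). Dnajb11 lay at 10.60, 10.84 and 10.70 with GW9662, against 10.88, 10.81 and 10.90 without, a difference of -0.15 (interval -0.33 to 0.03), and with 1 array left out it ran from -0.21 (without replicate 2 with GW9662) to -0.09 (without replicate 1 with GW9662). Dnajb9 lay at 9.35, 9.47 and 9.27 with GW9662, against 9.42, 9.44 and 9.58 without, a difference of -0.12 (interval -0.30 to 0.06), which was -0.17 without replicate 2 with GW9662 and -0.07 without replicate 3 of either group. In all 3 genes the array with GW9662 that reached into the other group was replicate 2, which stood apart. Without it, Dnajc3 and Dnajb11 both had an unadjusted p of 0.023 and an adjusted p of 0.718 in limma. With array weights in limma their unadjusted p was 0.020 and 0.0089 (adjusted p = 0.231 and 0.186). In these fits 6.8% and 16.5% of all genes were at an unadjusted p under 0.05. The weights were uneven, at 5.74 for replicate 1 of telmisartan and LPS and 0.37 to 1.37 for the other arrays. Of all 11 chaperones and cochaperones, 9 had a negative difference (median -0.02), and this count was 6 with median centring and 5 with repeated quantile normalization.

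Disulfide enzymes did not separate the groups either. The 5 tested, namely the disulfide isomerase genes Pdia3, Pdia6 and P4hb and the oxidase genes Ero1a and Ero1b that recharge the isomerases, differed by -0.04 to 0.02. The interval with the widest reach was that of Ero1b (-0.24 to 0.16). P4hb was among the steadiest genes, at 12.15, 12.15 and 12.12 with GW9662, against 12.13, 12.09 and 12.15 without. Ero1a had a second, dimmer probe set, which differed by 0.04, beside 0.02 for the brighter one.

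Degradation genes of the list had small positive differences, unlike the 22 other ERAD genes tested (11 positive and 11 negative, median -0.0036). All 6 tested genes of the list were positive (41.2% of all genes tested were), with a median of 0.08. They stayed positive under both rescalings of the arrays. Only 5 of 6 were positive with array weights or without the 2 arrays that stood apart. The count was 3 of 6 when replicate 2 with GW9662 was left out, and 4 of 6 when replicate 2 of telmisartan and LPS was. Herpud1 (probe set 17504005), whose product organises the degradation complex in the ER membrane, had 11.195, 11.090 and 11.143 with GW9662, against 11.004, 11.005 and 10.887 without. All 3 arrays with GW9662 were above the other 3, and replicate 3 without GW9662 was the lowest. The difference was 0.18 ± 0.07 (SE), or 1.13-fold with an interval of 1.02 to 1.26, and it did not pass in limma (adjusted p = 0.994, unadjusted p = 0.0284). Syvn1 (probe set 17356583), the ubiquitin ligase of the same complex, carries the first form of the element where Herpud1 carries the second, and had 8.69, 8.62 and 8.82 with GW9662, against 8.56, 8.57 and 8.50 without. The groups did not overlap, and replicate 3 with GW9662 lay well above the rest. The difference was 0.17 ± 0.07 (SE), or 1.12-fold with an interval of 0.999 to 1.26 (adjusted p = 0.994 in limma). Without that replicate it was 0.11, and without the 2 arrays that stood apart the differences were 0.16 for Herpud1 and 0.19 for Syvn1.

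The other degradation genes overlapped between groups. Sel1l, the adaptor of the ligase, and Edem1, which marks misfolded glycoproteins for removal, differed by 0.01 (interval -0.14 to 0.17) and 0.0095 (-0.15 to 0.17). Derl1 and Derl2, membrane proteins of the export channel, differed by 0.09 (-0.10 to 0.28) and 0.06 (-0.13 to 0.26). Without replicate 3 of telmisartan and LPS, Derl1 differed by 0.03, and without replicate 2 of the group with GW9662, Derl2 differed by -0.02. Dimmer probe sets of Edem1 and Derl2, both under the level filter, differed by 0.14 and -0.06.

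Translocon and phosphatase genes ended the list. Sec61b, a subunit of the channel through which proteins enter the ER, was the least steady gene, at 6.51, 6.51 and 7.03 with GW9662, against 6.41, 6.81 and 6.66 without. Its range of 0.62 over the arrays was the widest of the 30, and its difference of 0.06 had an interval of -0.30 to 0.42. Ssr1, of the complex beside the channel, differed by -0.05 (interval -0.21 to 0.11). Dimmer probe sets of Sec61b and Ssr1 differed by -0.05 and -0.03. Ppp1r15a (probe set 17490878) encodes GADD34, the inducible subunit that restores translation by bringing a phosphatase to eIF2. It lay at 7.79, 7.84 and 7.71 with GW9662, against 7.81, 7.83 and 7.78 without, and the groups overlapped. Its difference was -0.02 (interval -0.17 to 0.12), and that of Ppp1r15b, the constitutive subunit, was 0.0042 (-0.23 to 0.24).

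Chaperones and disulfide enzymes deviated together on single arrays of both groups. On replicate 2 with GW9662 the mean deviation from each gene's mean over the 6 arrays was 0.04 for the chaperones and 0.09 for the disulfide enzymes, on replicate 3 with GW9662 it was -0.07 and -0.06, and on replicate 3 of telmisartan and LPS it was 0.06 and 0.05. The same means over all genes tested ran from -0.02 to 0.03 over the 6 arrays. Replicate 2 with GW9662 was the highest array for 10 of the 30 genes, beside 15.1% of all genes tested. Replicate 3 of telmisartan and LPS was the highest for 8, no larger a share than the 28.0% of all genes. Replicate 3 with GW9662 and replicate 2 of telmisartan and LPS were each the lowest array for 9, beside 16.6% and 17.5% of all genes. Degradation genes averaged 0.07 on replicate 2 with GW9662 and sensors 0.02, of the same sign as the chaperones there. On replicate 3 of telmisartan and LPS degradation genes averaged -0.07, where chaperones were high, and sensors 0.0078. The part of array quality in these values was not tested.

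**Figure D3:**
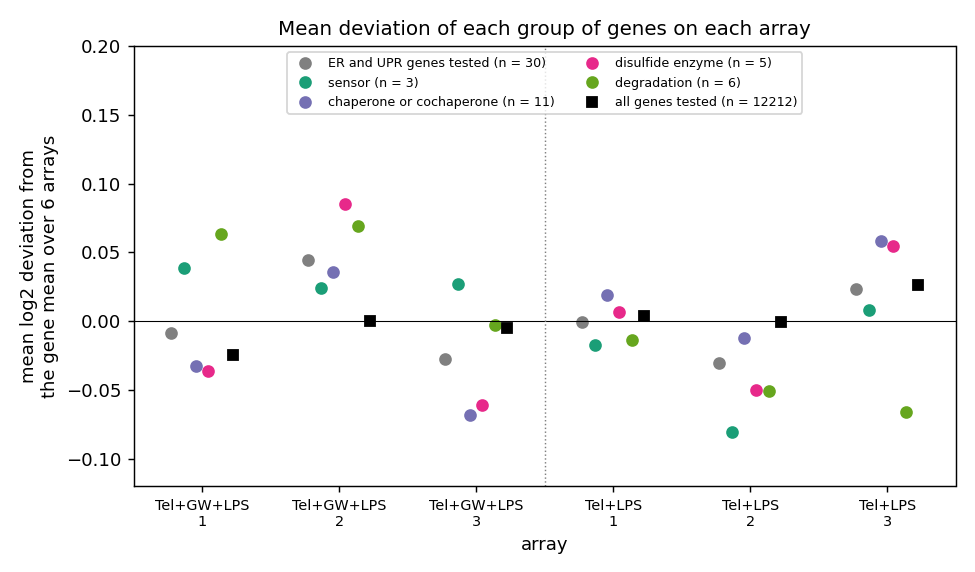
Mean log2 deviation (vertical axis) of each group of genes from the gene means over the 6 arrays, on each array (horizontal axis), with GW9662 on the left of the dotted line and without it on the right. Chaperones and disulfide enzymes are high on replicate 2 with GW9662 and on replicate 3 of telmisartan and LPS, 1 array from each group. The mean of the degradation genes is higher on each array with GW9662 than on any without it. The distance is small for replicate 3 with GW9662 (-0.0025, against -0.013 on replicate 1 of telmisartan and LPS). By the median of the same genes this order does not hold. Replicate 3 with GW9662 is at -0.059, below replicates 1 and 2 of telmisartan and LPS (-0.019 and -0.051).

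The difference with GW9662 was of both signs among the genes with the element. Of the 11 tested genes with either form, 3 were positive and 8 negative, with a median of -0.03 and a range from -0.21 for Dnajc3 to 0.18 for Herpud1. Of the 14 tested genes whose window held neither, 8 were positive and 6 negative, with a median of 0.007 and a range from -0.12 for Dnajb9 to 0.20 for Ern1. The UPR element TGACGTGG was found in none of the 27 windows, against 0.714% of all genes, and the CHOP-ATF4 composite site TGATGCAAT in none, against 0.222%. A window without these letters says nothing about binding outside it. Only exact letters were searched, so variants of the elements inside a window were not counted.

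The other genes of ER folding and stress gave as few calls. Of 134 further genes listed by role, 122 were tested, 62 with a positive and 60 with a negative difference, and 0 passed in limma. At an unadjusted p under 0.05 there were 6 (4.92%), beside 4.45% of all genes tested. The 25 other folding enzymes had a median of -0.04, with Fkbp7, a peptidyl-prolyl isomerase gene, at -0.23 ± 0.07 (SE) and Tmx1, a membrane-bound thioredoxin-like oxidoreductase gene, at -0.20 ± 0.10. Of the 22 other ERAD genes, 11 were positive and 11 negative, with a median of -0.0036. The smallest p belonged to the selenoprotein gene Selenok at -0.15 and the conjugating enzyme gene Ube2j2 at -0.17. The 27 translocon and glycosylation genes had a median of -0.03 (Spcs3 -0.14 and Sec11a -0.09, both signal peptidase genes). The 14 other UPR regulators had a median of 0.01 (Creb3l4 -0.13, Map3k5 -0.10), and the 20 genes of transport to the Golgi one of 0.0072, with the COPII coat gene Sec24c at 0.18 and the COPII GTPase gene Sar1b at -0.11.

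The list of PERK, ATF4 and CHOP genes had the highest differences of these lists. The activity of PERK was not measured, and what drives these genes here was not tested. Of 14 genes tested, 12 were positive, with a median of 0.08, 4 were at an unadjusted p under 0.05 (28.6%, beside 4.45% of all genes tested) and 0 passed. The differences ran from -0.23 for Nck1, an adaptor protein gene, to 0.47 for Trib3. Atf4 and Ddit3, which encode ATF4 and CHOP themselves, differed by 0.07 and 0.08. Chac1, which degrades glutathione and is a target of ATF4 and CHOP, had 8.77, 8.73 and 8.77 with GW9662, against 8.39, 8.45 and 8.33 without, and all 3 arrays with GW9662 were higher. The difference was 0.37 ± 0.06 (SE; adjusted p = 0.207 in limma). Trib3, a pseudokinase gene of the same list, had 9.64, 9.37 and 9.39 with GW9662, against 8.92, 9.10 and 8.98 without. The difference was 0.47 ± 0.09 (SE; adjusted p = 0.339 in limma), again with no overlap. Chac1 and Trib3 therefore separated the groups by more than any of the 30 ER folding and UPR genes. Eif2ak3 and Ppp1r15a, which encode the eIF2 kinase PERK and a phosphatase subunit, lay at differences of 0.0046 and -0.02. The difference between the lists was not tested.

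**Figure D4:**
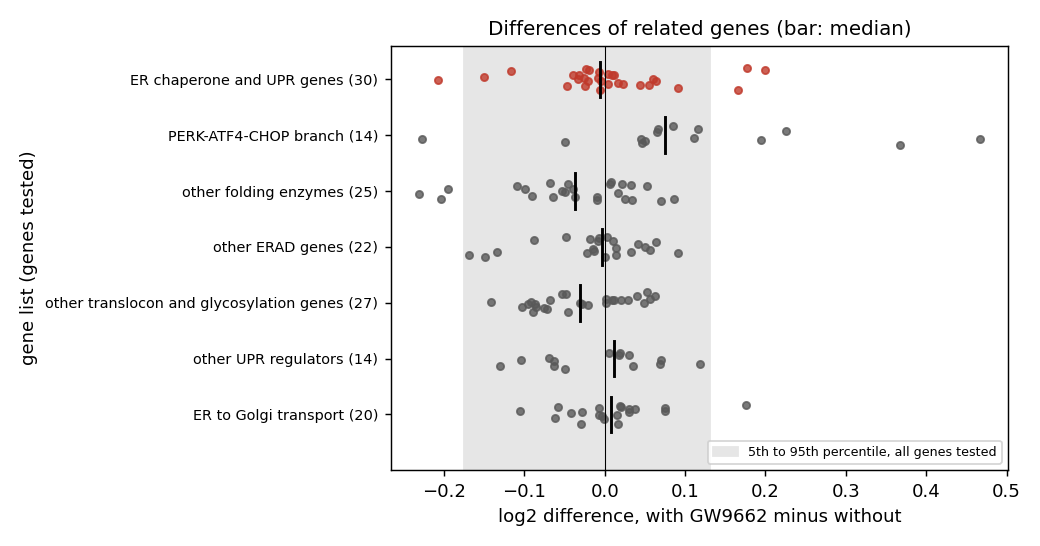
Log2 difference with GW9662 minus without (horizontal axis) of each tested gene of the ER chaperone and UPR list (red) and of 6 lists of related genes (grey), 1 list per line with the number tested, the median as a bar, and the 5th to 95th percentile of all genes tested (-0.17 to 0.13) shaded. Of the 30 listed genes 26 lie in the shaded span, 3 above and 1 below it, and the PERK, ATF4 and CHOP genes reach furthest to the right.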

How the data were processed

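RNA of 6 samples of BV2 cells was measured on 6 arrays, 3 per group, with 300 ng of total RNA per sample, per the labels. The deposited values are log2 expression levels that the authors computed by RMA, which corrects background, quantile-normalizes the 6 arrays together and combines probes by median polish, per the file headers. They name Affymetrix Power Tools 1.4.1.46, and the submitters' processing notes name Expression Console. A shift of most transcripts one way would be hidden by that normalization. The array named in the headers is the successor of the one in the labelling protocol. Of 41345 probe sets, 23521 had 1 symbol, 1820 several and 16004 none. Arrays give no read depth, and their number limits precision.

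Each symbol was represented by its brightest probe set, genes at or above a mean log2 level of 6.15 were tested with limma 3.58.1 in R 4.3.3 (group as the only term, eBayes, 4 residual degrees of freedom), and p-values were adjusted by the Benjamini-Hochberg method with a threshold of 0.05. The scripts were tested on simulated data. The genes, lists, tests and 17 alternatives were chosen with earlier results of these data known. Values on every array were given for Ern1, Eif2ak3, Atf6, Xbp1, Hspa5, Herpud1, Ppp1r15a and any other of the 30 genes at an unadjusted p under 0.05 or with separate groups, and the 2 genes of smallest p were named per related list. Arrays of the J-domain genes, P4hb and Sec61b were shown after their values were seen. Promoter windows are those of RefSeq for GRCm38.p6, and 27 of the 32 genes matched. Protein sequences were not used here.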

Additional observations from a re-analysis of the deposited data

How the results depend on the processing

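No gene of the ER folding and UPR list passed under any of the 17 alternatives, where its lowest adjusted p in limma was 0.167 (Ern1, array weights). The genes of the related lists, Chac1 and Trib3 among them, were not examined under these alternatives. Ern1 stayed at 0.16 to 0.25, Herpud1 at 0.14 to 0.20 and Syvn1 at 0.11 to 0.21. With an array left out, genes past the threshold numbered 0 to 2, listed genes at an unadjusted p under 0.05 numbered 0 to 5 (in the GW9662 arm, 0 when replicate 1 or 3 was dropped and 5 when replicate 2 was, beside 3.01%, 3.44% and 6.8% of all genes, and in the other arm 1 when replicate 2 or 3 was, beside 4.91% and 5.76%), and those with separate groups numbered 4 to 9 (9 when replicate 2 of the GW9662 arm was dropped, beside 25.5% of all genes, and 8 when replicate 2 of the other arm was, beside 19.5%). Without both arrays that stood apart, 0 genes passed (944 at an unadjusted p under 0.05), 4 listed genes were at an unadjusted p under 0.05 (7.73% of all genes) and 10 had separate groups (39.1%). Over all genes, 1 passed with no level filter, 9 with a filter at 7, 10 with median centring, 10 with repeated quantile normalization, 49 with array weights, 13 with an intensity trend and 0 without moderation (610 at an unadjusted p under 0.05). With the replicate block 0 genes passed (379 at an unadjusted p under 0.05) and 1 listed gene, Ern1, was at an unadjusted p under 0.05. Deviations of same-numbered samples correlated at 0.294, -0.451 and -0.122 for replicates 1, 2 and 3, and 2 of the 6 arrays correlated best with their own number. With 3 arrays per group, and with the 2 arrays that stood apart under different numbers, these values cannot decide whether the numbers mark pairs. The main fit did not take them as pairs. With array weights 5 listed genes were at an unadjusted p under 0.05, beside 16.5% of all genes.

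Signs of near-zero differences moved, and 9 of the 30 kept theirs in the 17 alternatives. With median centring Canx was 0.0071, Sdf2l1 0.0058, Manf 0.0098 and Pdia3 0.0090. With repeated quantile normalization Atf6 was 0.0024, Xbp1 0.0092, Hspa5 0.0096, Canx 0.0048, Sdf2l1 0.019, Manf 0.0063 and Pdia3 0.0076. With array weights Xbp1 was 0.0066, Hyou1 -0.011, Manf 0.024, Edem1 -0.037 and Ppp1r15b -0.11. Without the 2 arrays that stood apart Xbp1 was 0.012, Hsp90b1 0.0009, Pdia3 0.0074, Derl2 -0.017 and Ppp1r15b -0.072. With 1 array left out, the ranges were -0.065 to 0.072 for Eif2ak3, -0.067 to 0.021 for Atf6, -0.038 to 0.0053 for Xbp1, -0.080 to 0.040 for Hspa5, -0.060 to 0.018 for Hsp90b1, -0.066 to 0.049 for Canx, -0.049 to 0.013 for Sdf2l1, -0.026 to 0.020 for Manf, -0.033 to 0.019 for Pdia3, -0.094 to 0.013 for Pdia6, -0.00088 to 0.031 for P4hb, -0.037 to 0.083 for Ero1a, -0.12 to 0.020 for Ero1b, -0.021 to 0.045 for Sel1l, -0.039 to 0.040 for Edem1, -0.016 to 0.14 for Derl2, -0.11 to 0.15 for Sec61b, -0.091 to 0.0016 for Ssr1, -0.051 to 0.011 for Ppp1r15a and -0.089 to 0.079 for Ppp1r15b. Small differences also changed size: Sec61b was 0.25 with array weights, Hyou1 ran from 0.020 to 0.098 and Creld2 from 0.023 to 0.073 with 1 array left out, and with the mean over all rows of a symbol Edem1 was 0.075 and Derl2 0.0026. That mean put Sec61b under the level filter and left 29 genes. The cause of these changes was not tested. The number of arrays, 3 per group, limits precision, and of the 30 genes Sec61b was the closest to the level filter (a mean of 6.69 with GW9662).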
